A study of Rattus norvegicus with 17 samples.

Results

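The regions described here carried a peak of trimethylated lysine 4 of histone H3 (H3K4me3) in mature rat oligodendrocytes (mOL) and at neither earlier stage, and also met a peak of acetylated lysine 27 of histone H3 (H3K27Ac) in mOL. H3K4me3 peaks of all 3 stages were joined into 1 set wherever they overlapped or touched. A member was a joined region with an mOL H3K4me3 peak, no H3K4me3 peak of the precursor (OPC) or immature (iOL) stage, and at least 1 bp in common with an mOL H3K27Ac peak. There were 2923 members among 17241 joined regions (17.0%, 95% interval 16.4 to 17.5). They made up 49.2% (47.9 to 50.5) of the 5942 regions with H3K4me3 in mOL alone. All intervals are exact Clopper-Pearson 95% intervals over regions and cover counting error only.

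The series profiled chromatin by ChIP-seq, sequencing of DNA recovered with an antibody, in primary cells of the oligodendrocyte lineage from wild-type Sprague-Dawley rats. The cells were taken from pup cortex at postnatal day 2. The labels give the OPC libraries a mitogen treatment, with PDGF-AA and bFGF in the growth medium, and the iOL and mOL libraries a T3 treatment, with thyroid hormone T3 and ciliary neurotrophic factor in the differentiation medium. The growth text names the isolated cells as immature oligodendrocytes for every library, so the stage here follows the sample titles. H3K4me3, H3K27Ac, H3K9me3, Olig2 and Brg1 each had 1 library at each of the 3 stages, and RNA polymerase II (RNAPII) had 1 in OPC and 1 in iOL, which makes 17 peak lists. With 1 library per target and stage there is no replicate check, and no test was made between stages or between kinds of region.

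H3K4me3 is the histone mark typical of active and poised promoters, and its domains often extend on both sides of a transcription start. H3K27Ac marks active promoters and active enhancers, so the marks together are usually read as promoter-like chromatin, while H3K27Ac without H3K4me3 is the common pattern of distal enhancers. Olig2 is a basic helix-loop-helix transcription factor needed to specify the oligodendrocyte lineage. Brg1, encoded by Smarca4, is an ATPase that drives the BAF complex in moving nucleosomes, and RNAPII is the enzyme that transcribes messenger RNA. H3K9me3 is a mark of heterochromatin.

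The lists differed in length, which bears on any count of peaks called at 1 stage alone. The OPC, iOL and mOL lists of H3K4me3 held 11758, 10467 and 17530 peaks, and those of H3K27Ac 19130, 21589 and 35268. In the same order of stages the Olig2 lists held 21901, 25787 and 2759 peaks and the Brg1 lists 452, 5465 and 4378. The RNAPII lists were short, with 332 peaks (OPC) and 1425 peaks (iOL). The depth of each library is unknown, so a gain of H3K4me3 in mOL and a more sensitive mOL library cannot be told apart, and neither can more cells with a mark and more of the mark per cell. When the mOL H3K4me3 list was reduced to as many of its widest peaks as iOL had, 818 members were left.

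The members were narrow regions. Their median width was 626 bp (quartiles 489.5 and 839 bp, range 200 to 4898 bp), against 1502 bp for the 8329 regions with H3K4me3 at all 3 stages and mOL H3K27Ac, and 999 bp for all joined regions. Only 491 members (16.8%) were 1000 bp or wider. The mOL H3K27Ac peaks they met had a median width of 728 bp and covered a median of 94.7% of the member, and 1064 members (36.4%) lay wholly under acetylation. The members were chosen by the calls in the H3K4me3 lists of all 3 stages and the mOL H3K27Ac list, so values from these lists are given as a description.

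At the edge of the rule, 17 members (0.582%) shared no more than 50 bp with mOL H3K27Ac. The 3 closest inside were chr11:37973430-37973856 with 1 bp, chr16:54280601-54281217 with 6 bp and chr1:26975059-26975626 with 7 bp in common (rn4, positions counted from 1). Of the 3019 regions with H3K4me3 in mOL alone that met no mOL H3K27Ac, 32 lay within 50 bp of it. Those just outside included chr1:83400884-83401325, chr3:13407866-13408350 and chr7:114262467-114263054, each 1 bp away. On the other side of the rule, 55 members (1.88%) lay within 50 bp of an OPC or iOL H3K4me3 peak that they did not touch.

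The first question was whether the members flanked H3K4me3 already present in OPC or iOL or stood at sites away from it. Members fell into a near and a far group with few between. Measured between facing edges, 1473 members (50.4%, 48.6 to 52.2) lay within 2000 bp of an OPC or iOL H3K4me3 peak and are called flanking. Another 1192 (40.8%, 39.0 to 42.6) lay over 10000 bp away and are called distant, and 258 (8.83%, 7.82 to 9.91) lay between. The median distance was 1916 bp, with quartiles of 370.5 and 43464 bp and a maximum of 4626369 bp.

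In finer steps, the fullest interval was 200 to 500 bp, with 534 members (18.3%). The intervals of 2000 to 5000 bp and 5000 to 10000 bp held 137 (4.69%) and 121 (4.14%) members. Beyond 100000 bp there were 406 members (13.9%). The intervals differ in width, so these counts describe the spread and not a density.

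**Figure D1:**
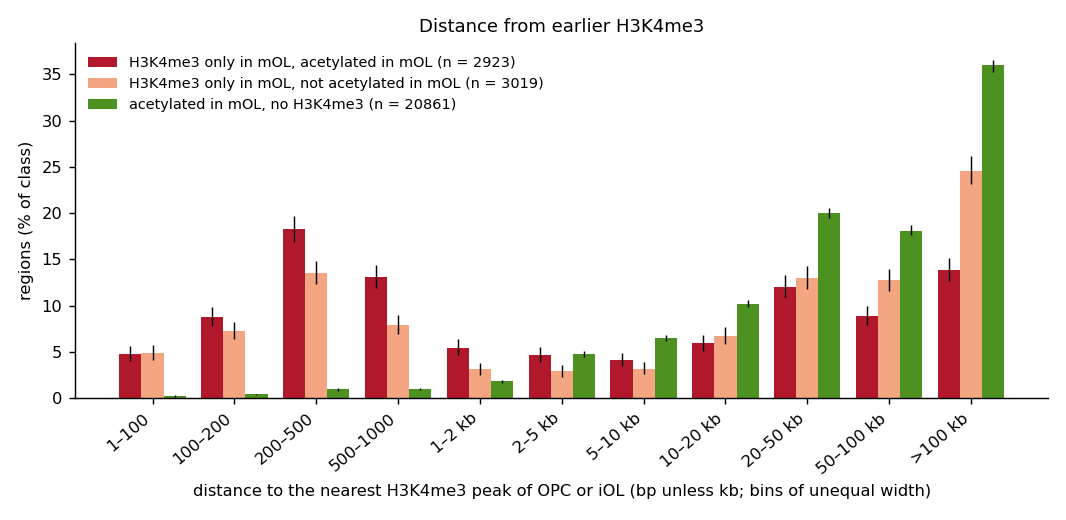
Distance from each region to the nearest H3K4me3 peak of OPC or iOL, as the percent of regions in each distance interval, for members and for the kinds of region set beside them. Among members 50.4% lay within 2000 bp and 40.8% over 10000 bp away, against 36.8% and 57.2% of regions with H3K4me3 in mOL alone and no mOL H3K27Ac.

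Members lay close to earlier H3K4me3 more often than the other kinds of region without H3K4me3 in OPC or iOL. Regions with H3K4me3 in mOL alone and no mOL H3K27Ac had a median distance of 20710 bp, with 36.8% within 2000 bp. The 20861 mOL H3K27Ac peaks that met no H3K4me3 had a median distance of 58639 bp, with 4.40% within 2000 bp. Some of that distance is built in, since acetylated peaks meeting an H3K4me3 region of any stage were left out of this set. For members some closeness is built into the rule, which joins only peaks that touch. When H3K4me3 peaks were joined across gaps of up to 1000 bp, 1350 members were left, of which 5.70% were flanking.

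The flanking members lay beside 1387 different H3K4me3 regions. Of those neighbours, 1112 (80.2%) carried H3K4me3 at all 3 stages, 171 (12.3%) in OPC and mOL, and 100 (7.21%) in iOL and mOL, and only 4 lacked it in mOL. A neighbour had more than 1 flanking member beside it in 80 cases (5.77%). Only 75 flanking members (5.09%) had earlier H3K4me3 within 2000 bp on both sides. The nearest other mOL H3K4me3 peak was a median of 232 bp from flanking members and 42695 bp from distant ones.

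Most flanking members did not share an mOL H3K27Ac peak with an OPC or iOL H3K4me3 peak. Sharing with the mOL part of the neighbouring region was not counted. A single mOL H3K27Ac peak covered part of the member and part of an OPC or iOL H3K4me3 peak for 151 of 1473 flanking members (10.3%), for 9 of the 258 between (3.49%) and for no distant member. The mOL H3K27Ac peaks at flanking members had a median width of 656 bp, and those at distant members 824 bp.

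H3K27Ac was also called in OPC or iOL at many members, though at neither stage more often than at H3K4me3 regions at large. H3K27Ac was called in OPC at 1526 members (52.2%, 50.4 to 54.0) and in iOL at 1582 (54.1%, 52.3 to 55.9). Both shares were somewhat below the background of all joined H3K4me3 regions, 57.9% for OPC and 58.0% for iOL. The H3K27Ac lists of OPC and iOL, with 19130 and 21589 peaks, were longer than the H3K4me3 lists, with 11758 and 10467. With only the wider 50% of H3K27Ac peaks the shares of members were 23.7% in OPC and 23.8% in iOL. Set by stage, 1190 members (40.7%) had H3K27Ac at all 3 stages, 392 (13.4%) in iOL and mOL, 336 (11.5%) in OPC and mOL, and 1005 (34.4%, 32.7 to 36.1) in mOL alone. Outside that last group, H3K27Ac was called at 1 or both earlier stages at a place where H3K4me3 was called in mOL alone.

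Against regions with H3K4me3 at all 3 stages and mOL H3K27Ac, earlier acetylation was less frequent in members. The share with H3K27Ac in iOL was 54.1% in members and 86.0% in those regions, and it was lower in members on all 21 sequences compared (the numbered chromosomes and X). Over 839 bp, the upper quartile of member width, the shares were 52.9% in members and 87.2% in those regions. H3K27Ac in mOL alone held for 34.4% of members and 6.93% of regions with H3K4me3 at all 3 stages.

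Set beside mOL H3K27Ac peaks without H3K4me3, members carried earlier acetylation more often. H3K27Ac in iOL met 54.1% of members and 37.8% of those peaks, and H3K27Ac in OPC met 52.2% of members and 27.6% of those peaks. The difference was not the same in all bands of width. Width here is that of the H3K4me3 region for members and of the H3K27Ac peak for peaks without H3K4me3. The mOL H3K27Ac peaks at members had a median width of 728 bp, against 626 bp for the members. The bands are therefore not matched for the width of acetylation. Among regions up to 489.5 bp wide the iOL shares were 52.7% in members and 15.9% in acetylated peaks without H3K4me3, whereas over 839 bp they were 52.9% in members and 54.4% in those peaks. For OPC the widest regions still differed, with 50.5% of members and 39.2% of those peaks. Of the regions with H3K4me3 in mOL alone and no mOL H3K27Ac, 6.09% met H3K27Ac of OPC and 5.20% that of iOL, but mOL acetylation divides these regions from members by the rule, so that difference supports nothing.

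H3K27Ac of iOL was called less often at distant than at flanking members, and for OPC the difference was smaller. The iOL share was 47.6% (44.7 to 50.4) of distant and 58.4% (55.8 to 60.9) of flanking members, and the OPC share 47.1% (44.2 to 49.9) of distant and 54.6% (52.0 to 57.1) of flanking members. The members between were highest, at 60.1% (53.8 to 66.1) for iOL and 62.4% (56.2 to 68.3) for OPC. A lower distant share was not particular to members. H3K27Ac of iOL met 36.9% of distant and 44.1% of flanking mOL H3K27Ac peaks without H3K4me3. Distant members had H3K27Ac in mOL alone in 486 cases (40.8%, 38.0 to 43.6), against 30.6% of flanking members. The iOL share was lower at distant members on 16 of 21 chromosomes and higher on 5, and the OPC share was lower on 13 and higher on 8. Up to 489.5 bp in width the OPC shares hardly differed, at 47.3% of distant and 48.1% of flanking members. With only the wider 50% of iOL H3K27Ac peaks the order turned round, and the iOL share was then 7.69 percentage points higher at distant members.

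Olig2 was called at a minority of members, but more often than at H3K4me3 regions at large. It met 375 members in OPC (12.8%, 11.6 to 14.1), 451 in iOL (15.4%, 14.1 to 16.8) and 42 in mOL (1.44%, 1.04 to 1.94). The background over all joined H3K4me3 regions was 6.51% in OPC, 8.77% in iOL and 0.394% in mOL. The mOL list of Olig2 held 2759 peaks against 25787 in iOL, so the stages are not compared by share.

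By stage, Olig2 was called in OPC and iOL at 259 members, in iOL alone at 150, in OPC alone at 75 and at all 3 stages at 41. Only 1 member met Olig2 in iOL and mOL without OPC, and none met it in mOL alone. No Olig2 peak of any stage met 2397 members (82.0%). At 41 of the 42 members with Olig2 in mOL, Olig2 was thus also called at both earlier stages. The mOL list of Olig2 was short, with 2759 peaks against 21901 in OPC and 25787 in iOL. The same share was not taken over all joined H3K4me3 regions, so it describes only these members.

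Members lay between other kinds of region in their Olig2 share. Olig2 of iOL met 15.4% of members, 9.28% of regions with H3K4me3 at all 3 stages and mOL H3K27Ac, 3.05% of mOL-only regions without mOL H3K27Ac, and 40.4% of mOL H3K27Ac peaks without H3K4me3. Members were above the regions with H3K4me3 at all 3 stages on 20 of 21 chromosomes and below the H3K27Ac peaks without H3K4me3 on all 21. Over 839 bp in width the shares were 21.4% in members and 9.85% in regions with H3K4me3 at all 3 stages.

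**Figure D2:**
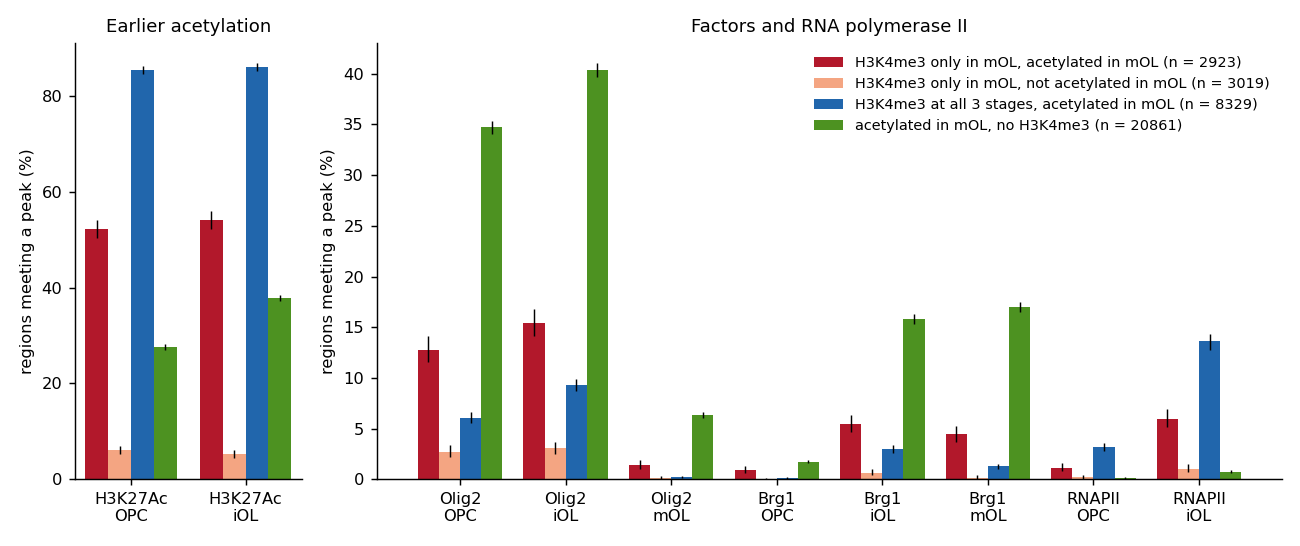
Percent of regions meeting a peak of H3K27Ac (OPC, iOL), Olig2, Brg1 and RNAPII at each stage, for members and the 3 kinds of region compared with them, with bars for shares and lines for exact 95% intervals over regions. Members lay between H3K4me3 regions of all 3 stages and acetylated peaks without H3K4me3 for Olig2 of iOL (15.4%, against 9.28% and 40.4%) and for RNAPII of iOL (5.99%, against 13.6% and 0.762%).

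Near and far sites differed widely in their Olig2 share. Olig2 of iOL met 304 distant members (25.5%, 23.0 to 28.1) and 98 flanking members (6.65%, 5.43 to 8.05), with 49 (19.0%) of those between. In OPC the shares were 21.6% of distant and 5.30% of flanking members, and in mOL 2.60% of distant and 0.475% of flanking members. The flanking share in iOL was below the background of 8.77%. Distant members were higher than flanking ones on all 21 chromosomes for Olig2 of iOL and on 20 of 21 for Olig2 of OPC.

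The difference was similar within bands of region width. In the narrowest band, up to 489.5 bp, Olig2 of iOL met 23.4% of distant and 5.42% of flanking members, and in the widest band, over 839 bp, it met 26.6% of distant and 9.77% of flanking members. Among distant members the share was 22.4% at 10000 to 20000 bp and 28.6% (24.2 to 33.2) beyond 100000 bp. The same split was seen in acetylated peaks without H3K4me3, at 41.6% of distant and 22.2% of flanking peaks, so it was not particular to the members.

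Brg1 was likewise called at few members, and over all members together more often than at H3K4me3 regions at large. It met 27 members in OPC (0.924%, 0.610 to 1.34), 159 in iOL (5.44%, 4.65 to 6.32) and 130 in mOL (4.45%, 3.73 to 5.26). The background was 0.215% in OPC, 2.81% in iOL and 1.52% in mOL. By stage, Brg1 was called in iOL alone at 76 members, in iOL and mOL at 57, in mOL alone at 51 and at all 3 stages at 21, and 2712 members (92.8%) met none. The OPC list held 452 peaks in all, which limits any count in OPC. Brg1 of iOL met 5.44% of members, 3.00% of regions with H3K4me3 at all 3 stages and mOL H3K27Ac, and 15.8% of mOL H3K27Ac peaks without H3K4me3. Members were above the regions with H3K4me3 at all 3 stages on 18 of 21 chromosomes and below the peaks without H3K4me3 on all 21.

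At distant members Brg1 of iOL was called in 111 cases (9.31%, 7.72 to 11.1), against 29 flanking members (1.97%, 1.32 to 2.82). For Brg1 of mOL the counts were 93 distant (7.80%, 6.34 to 9.47) and 21 flanking members (1.43%, 0.885 to 2.17). The flanking share was not above the background at any stage. It was 0.136% in OPC (background 0.215%), 1.97% in iOL (2.81%) and 1.43% in mOL (1.52%). The iOL share was higher at distant members on 20 of 21 chromosomes, and the mOL share on 17. Among acetylated peaks without H3K4me3, Brg1 of mOL met 18.4% of distant and 5.45% of flanking peaks. Brg1 of OPC met none of the 3019 regions with H3K4me3 in mOL alone and no mOL H3K27Ac, which allows a share of up to 0.0994%.

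**Figure D3:**
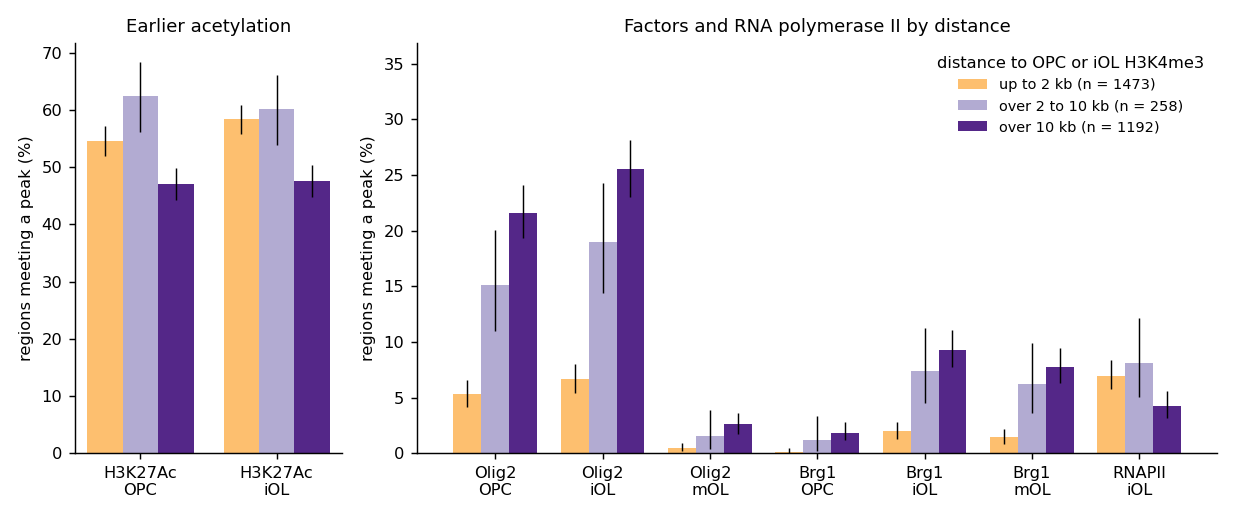
Percent of members meeting a peak of H3K27Ac (OPC, iOL), Olig2 and Brg1 (all stages) and RNAPII (iOL), by distance to the nearest OPC or iOL H3K4me3 peak, with lines for exact 95% intervals over regions. Olig2 and Brg1 shares were higher at distant than at flanking members at every stage (Olig2 of iOL 25.5% of distant and 6.65% of flanking members), and H3K27Ac and RNAPII of iOL shares were lower (RNAPII 4.28% of distant and 6.99% of flanking members), an order that turned round for H3K27Ac of iOL with the wider 50% of its peaks.

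Among members, Brg1 was mostly called where Olig2 had also been called. Such shares were not taken over all joined H3K4me3 regions, so whether they are particular to members was not tested. Over all stages, 175 members (5.99%) met both factors, 351 (12.0%) met Olig2 without Brg1, 36 (1.23%) met Brg1 without Olig2, and 2361 (80.8%) met neither. In iOL, Olig2 was called at 125 of the 159 members with Brg1 (78.6%, 71.4 to 84.7). In mOL it was called at 30 of the 130 with Brg1 (23.1%), but 114 of those 130 (87.7%, 80.8 to 92.8) had Olig2 in OPC or iOL. Both factors, at any stage, met 126 distant members (10.6%) and 29 flanking members (1.97%). At least 1 factor was called at 360 distant members, while 832 (69.8%) met neither.

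Among members, the factors sat chiefly at those acetylated before mOL. Such shares were not taken over all joined H3K4me3 regions, so whether this is particular to members was not tested on them. H3K27Ac of iOL was called at 76.5% of members with Olig2 or Brg1 at any stage and 48.8% of members with neither, and among distant members at 77.2% of those with either factor and 34.7% of those with neither. H3K27Ac of OPC was called at 77.2% of members with either factor and 46.3% of those with neither.

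Read the other way, among distant members with H3K27Ac at all 3 stages Olig2 of iOL met 215 of 422 (50.9%, 46.1 to 55.8), against 34 of 486 (7.00%, 4.89 to 9.64) of those acetylated in mOL alone. Between these stood distant members acetylated in iOL and mOL (22.1%) and in OPC and mOL (16.5%). For Brg1 of iOL the counts were 90 of 422 (21.3%, 17.5 to 25.5) with acetylation at all 3 stages and 10 of 486 (2.06%, 0.991 to 3.75) with acetylation in mOL alone. Brg1 of mOL, the stage at which H3K4me3 was called, met 72 of 422 (17.1%) acetylated at all 3 stages and 6 of 486 (1.23%) acetylated in mOL alone. Distant members acetylated in mOL alone met Olig2 of OPC in 5.56% of cases and Olig2 of mOL in 1.03%.

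Width was alike in these groups, with medians of 723 bp for distant members acetylated at all 3 stages and 714 bp for those acetylated in mOL alone. Up to the distant members' median width of 722 bp, Olig2 of iOL met 48.3% of those acetylated at all 3 stages and 8.91% of those acetylated in mOL alone, and above that width 53.6% of those acetylated at all 3 stages and 5.02% of those acetylated in mOL alone. The order also held in acetylated peaks without H3K4me3 over 10000 bp from earlier H3K4me3. There Olig2 of iOL met 81.3% of peaks acetylated at all 3 stages and 21.2% of peaks acetylated in mOL alone. The median width was 1397 bp in the peaks acetylated at all 3 stages and 682 bp in those acetylated in mOL alone.

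**Figure D4:**
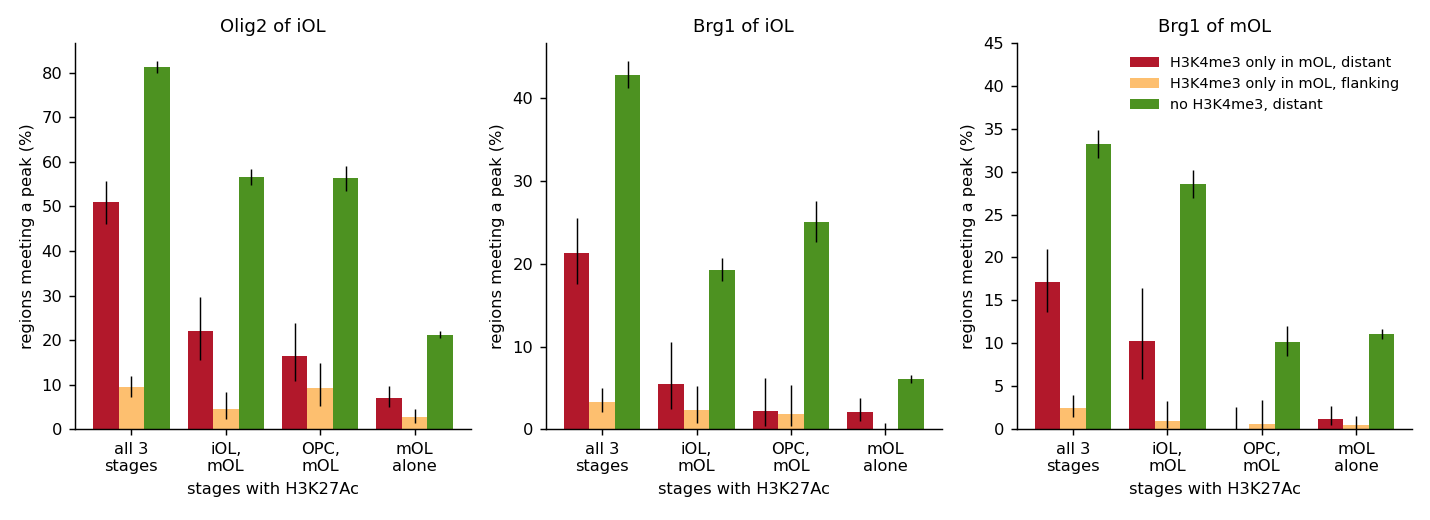
Percent of regions meeting a peak of Olig2 of iOL, Brg1 of iOL and Brg1 of mOL (panels left to right), by the stages at which H3K27Ac was called, for distant members, flanking members and distant mOL H3K27Ac peaks without H3K4me3, with lines for exact 95% intervals over regions. Among distant members Olig2 of iOL met 50.9% of those acetylated at all 3 stages and 7.00% of those acetylated in mOL alone.

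RNAPII of iOL, the later of its 2 libraries, was called at 175 members (5.99%, 5.15 to 6.91), and RNAPII of OPC at 34 (1.16%, 0.807 to 1.62). The background was 8.36% in iOL and 1.87% in OPC, so both shares lay below that of H3K4me3 regions at large. RNAPII was called in both stages at 24 members, in iOL alone at 151 and in OPC alone at 10, and 2738 (93.7%) met none. Against 13.6% of regions with H3K4me3 at all 3 stages and mOL H3K27Ac, the iOL share was lower in members on all 21 chromosomes. Against 0.762% of H3K27Ac peaks without H3K4me3 it was higher on all 21.

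For RNAPII the order by distance was opposite to that of Olig2 and Brg1, and the difference was small. RNAPII of iOL met 51 distant members (4.28%, 3.20 to 5.59) and 103 flanking members (6.99%, 5.74 to 8.42), and was lower at distant members on 16 of 21 chromosomes. In regions 1000 bp or wider the distant share minus the flanking share was -0.120 percentage points, against -2.71 for all members. The order was not particular to members. Acetylated peaks without H3K4me3 met RNAPII of iOL at 0.625% of distant and 2.61% of flanking peaks. For mOL-only regions without mOL H3K27Ac the shares were 0.753% of distant and 1.62% of flanking regions. Members within 200 bp of earlier H3K4me3 met RNAPII of iOL in 48 of 396 cases (12.1%, 9.07 to 15.7), against 5.24% at 200 to 500 bp. Of the 103 flanking members with RNAPII of iOL, 70 (68.0%) had a neighbouring H3K4me3 region that also met it. Over all 1473 flanking members, the neighbour met it for 125 (8.49%). RNAPII peaks of iOL had a median width of 1047 bp, against 566 bp for flanking members. Cases in which 1 peak met both the member and the neighbour were not counted apart.

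RNAPII of iOL was called chiefly at members with H3K27Ac called in iOL. H3K27Ac of iOL was present at 148 of the 175 members with RNAPII of iOL (84.6%, 78.4 to 89.6), against 54.1% of all members. Shares among regions with RNAPII were not taken over all joined H3K4me3 regions, so they describe only the members. Olig2 or Brg1 of iOL was called at 24 of the 51 distant members with RNAPII (47.1%, 32.9 to 61.5) and at 12 of the 103 flanking ones (11.7%, 6.17 to 19.5). Over all members, not divided by RNAPII, Olig2 of iOL met 25.5% of distant and 6.65% of flanking members. That split by distance was not taken separately for members with and without RNAPII. The members with RNAPII in iOL had no H3K4me3 called in iOL, by the rule. RNAPII in mOL was not analysed here.

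H3K9me3 met few members, as it did H3K4me3 regions at large. It was called at 2 members in OPC (0.0684%, background 0.128%) and 5 in mOL (0.171%, background 0.139%). In iOL it was called at 0 of 2923, which allows a share of up to 0.103%, with a background of 0.0290%.

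The widest members show these patterns at single places, given in build rn4. The widest, chr11:58777709-58782606, spanned 4898 bp and lay 575906 bp from earlier H3K4me3. It was acetylated at all 3 stages and met Olig2 in OPC and iOL. Further distant regions of this kind, which also met RNAPII of iOL, were chr17:85108514-85112399 (3886 bp wide) and chr4:58128806-58132645 (3840 bp wide), both with Olig2 in OPC and iOL and H3K27Ac at all 3 stages. None of the 3 met Brg1.

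Wide members acetylated in mOL alone looked different. The second widest member, chr20:32761760-32766069, spanned 4310 bp at 464752 bp from earlier H3K4me3, and no Olig2, Brg1 or RNAPII peak met it. The next widest distant members of this kind, chr1:170753870-170756702 (2833 bp) and chr7:134240049-134242831 (2783 bp), likewise met no peak of those lists. The widest mOL H3K27Ac peak that each met was 674, 1129 and 1055 bp wide in that order, well under the width of the H3K4me3 region.

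Near earlier H3K4me3, the widest flanking member was chr3:3426734-3430793, 4060 bp wide and 745 bp from it, with H3K27Ac at all 3 stages, a 9517 bp mOL H3K27Ac peak and RNAPII of iOL. The next widest flanking members were chr18:53673707-53676835 (3129 bp) and chr8:90503034-90505737 (2704 bp). Both were acetylated in mOL alone and met no Olig2, Brg1 or RNAPII. Of members between 2000 and 10000 bp away, the widest was chr2:181450318-181453348 (3031 bp wide, 7071 bp away), with H3K27Ac at all 3 stages and RNAPII of iOL. It was followed by chr7:117150601-117152588 (1988 bp), with Olig2 in iOL and mOL and RNAPII in iOL, and chr3:9067379-9069359 (1981 bp), acetylated at all 3 stages with no factor.

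Olig2 and Brg1 at all 3 stages, 6 lists in all, met 9 members. The widest of these were chr20:42700287-42702022 (1736 bp), chr9:65208168-65209841 (1674 bp) and chr14:35868174-35868980 (807 bp). They lay 375524, 75557 and 43611 bp from earlier H3K4me3, in that order. All 3 were acetylated at every stage and met no RNAPII peak. At the other end of the scale, 224 of the 2923 members met exactly 1 of the 6 lists and 2361 met none.

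**Figure D5:**
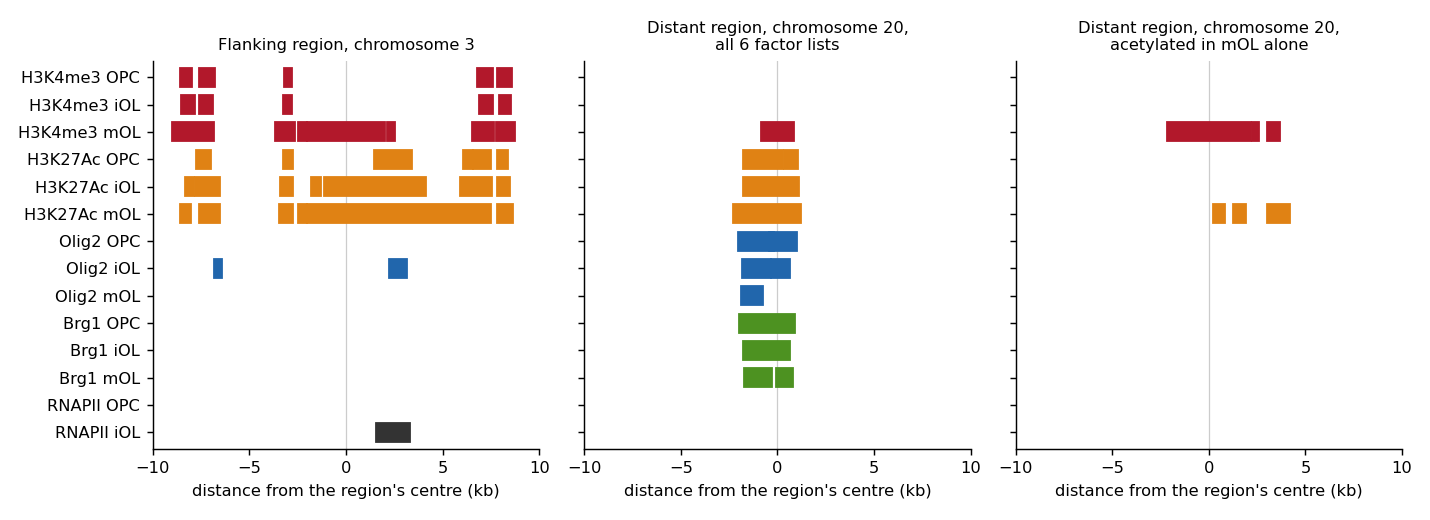
Peaks around 3 members, drawn to scale against distance from the centre of the member in kb, with 1 row for each list. The flanking member on chromosome 3 (4060 bp) has earlier H3K4me3 on both sides, nearest on its left, the distant member on chromosome 20 with all 6 factor lists (1736 bp) has none in view, and the distant member on the same chromosome acetylated in mOL alone (4310 bp) has mOL peaks and no other.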

How the data were processed

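Peak lists of 17 ChIP-seq libraries were analysed. Per the submitters' processing notes, MACS 1.4.0 and genome build rn4 were used. The SOLiD fragment libraries are named in the labels' protocols. For the aligner, threshold, control library, filters and pooling, no detail is given in the sources used here. Deposited lists give only positions (sequence name, start, end) in 3 columns, without score, count or signal, and library depth is unknown.

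Starts were changed to positions counted from 1. Overlap meant at least 1 bp. Distances were counted between facing edges. Shares have exact Clopper-Pearson 95% intervals, and a count of 0 is given with the share that 3 counts would give. Intervals treat regions as independent. The direction of a difference was also counted over the chromosomes, which is not a replicate. The background is the share of all joined H3K4me3 regions meeting a list. Regions were named by width within each kind, leaving out unplaced sequence. The members, comparisons and rules were chosen with earlier results of these data known. Alternatives covered the overlap, the list lengths, the joining of peaks, region width, target peaks and distance thresholds. Overlap counts were checked on simulated lists and against bedtools 2.31.1, and the work used Python 3.11.15, numpy 2.4.6, scipy 1.17.1, pandas 2.3.3 and matplotlib 3.10.9. Gene names and sequences were not used here, since the annotation at hand is of another build.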

Additional observations from a re-analysis of the deposited data

How the results depend on the processing

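Of 137 alternatives, 45 left the value near the reported one and 92 moved it. Near means inside the 95% interval for a share or the median, and within 1.5 times for the number of members. Cutting the mOL H3K4me3 list to its widest peaks, as many as in iOL, left 818 members, with Olig2 at 17.6% (OPC), 20.7% (iOL) and 2.08% (mOL), Brg1 at 7.21% (iOL) and 5.75% (mOL), 30.1% flanking and a median distance of 19970 bp. Its wider 50% left 561 members, with H3K27Ac at 48.0% (OPC) and 52.0% (iOL), Olig2 at 19.3%, 23.2% and 2.85% (OPC, iOL, mOL), Brg1 at 7.49% (iOL) and 6.06% (mOL), 38.0% acetylated in mOL alone, 26.6% flanking and a median of 22668 bp. With as many of the widest mOL H3K27Ac peaks as in OPC there were 1332 members, with H3K27Ac at 68.2% (OPC) and 71.2% (iOL), Olig2 at 24.2%, 27.9% and 2.85%, Brg1 at 1.95%, 10.9% and 9.46% (each OPC, iOL, mOL), RNAPII of iOL at 8.18%, 18.8% acetylated in mOL alone, 40.5% flanking and a median of 7716 bp. Joining H3K4me3 peaks across gaps of up to 1000 bp gave 1350 members, with H3K27Ac of iOL at 51.6%, Olig2 at 21.0%, 25.5% and 2.59%, Brg1 at 1.85%, 9.70% and 8.15%, RNAPII at 0.741% (OPC) and 4.81% (iOL), 5.70% flanking and a median of 41664 bp. Regions of 1000 bp or wider numbered 491, with H3K27Ac at 47.3% (OPC) and 50.7% (iOL), Olig2 at 20.2%, 22.4% and 2.85%, Brg1 at 7.54% (iOL) and 6.52% (mOL), 39.3% acetylated in mOL alone, 25.7% flanking and a median of 23669 bp. Each of these settings keeps fewer or wider regions by construction.

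With an overlap of 50% of the shorter, Olig2 met 13.3% (iOL) and 1.02% (mOL), and RNAPII of OPC 0.702%. Counting target peaks within 1000 bp gave H3K27Ac 68.3% (OPC) and 69.0% (iOL), Olig2 15.7% (OPC) and 19.4% (iOL), Brg1 7.08% (iOL) and 5.47% (mOL), RNAPII 1.74% (OPC) and 7.36% (iOL), and 21.1% acetylated in mOL alone. Only the middle 200 bp of target peaks gave H3K27Ac 46.7% (OPC) and 47.8% (iOL), Olig2 9.03% (OPC) and 12.0% (iOL), Brg1 4.38% (iOL) and 3.49% (mOL), RNAPII 0.445% (OPC) and 3.73% (iOL), and 39.1% acetylated in mOL alone. The wider 50% of target peaks gave H3K27Ac 23.7% (OPC) and 23.8% (iOL), Olig2 10.6%, 11.7% and 0.855%, Brg1 4.24% (iOL) and 3.66% (mOL), RNAPII 0.616% (OPC) and 3.25% (iOL), and 68.1% acetylated in mOL alone. The flanking share was 44.9%, 55.1% and 59.2% at thresholds of 1000, 5000 and 10000 bp, and 41.6% with a median of 9747 bp against regions of all 3 stages. From centre to centre the median was 2864 bp.

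Of 35 differences between distant and flanking members, added after the data were seen, 34 kept their direction. With the wider 50% of target peaks, H3K27Ac of iOL turned to 7.69 percentage points, against -10.8. RNAPII of iOL moved to -1.71 (H3K4me3 list as long as in iOL), -0.863 (its wider 50%), -0.120 (regions of 1000 bp or wider), -0.682 (middle 200 bp) and -0.862 (wider 50% of target peaks), against -2.71. With the shorter mOL H3K27Ac list, Olig2 of iOL was 29.5, Brg1 of iOL 11.3 and Brg1 of mOL 10.8, against 18.9, 7.34 and 6.38.

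No paired analysis was possible because each target and stage has 1 library, and for the same reason leaving out a library was not run. Depth is unknown, so a region without a peak is one where no peak was called.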

Other observations

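Distant members seldom lay together. Joined across gaps of up to 10000 bp, the 1192 distant members formed 1034 groups, of which 889 held a single member, 133 held 2 and 12 held 3 or more. The group with the most members, 4, spanned 7510 bp at chr11:58775097-58782606 (rn4) and includes the widest member of all.

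On the numbered chromosomes and X, members made up between 14.3% of joined H3K4me3 regions on chromosome 16 and 19.7% on chromosome 6. On unplaced sequence they made up 10 of 95 regions (10.5%, 5.16 to 18.5).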
